A study of Homo sapiens with 6 samples.

Results

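The genes described here encode the enzymes that remove R-loops or keep them from forming: RNASEH1, the RNase H2 subunit genes RNASEH2A, RNASEH2B and RNASEH2C, the helicase genes AQR and DHX9, the topoisomerase genes TOP1 and TOP3B, and the exoribonuclease gene XRN2. They were chosen by name, through the Ensembl identifier of each symbol. No value entered that rule, although earlier results of these data were known. They are 9 of the 60664 genes in the count table, and all 9 had at least 10 counts in total, the minimum for testing. The study sequenced the RNA of the human osteosarcoma line U-2 OS after transfection of control siRNA (siControl) or of siRNA against SFPQ (siSFPQ) at 30 nM, with 3 libraries per condition. Both conditions were the same cell line with no other treatment in the labels, so each comparison rests on a single line and on a partial depletion. The counts are of reads from poly(A) RNA on Ensembl genes. The question put to the genes was whether the transcripts of known R-loop resolving enzymes differed between control cells and cells with SFPQ knock-down; SFPQ is an RNA-binding protein studied for its action at R-loops.

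An R-loop is a hybrid of RNA with its DNA template next to a displaced DNA strand. RNase H enzymes cut the RNA of such hybrids: RNase H1 acts alone, in the nucleus and in mitochondria, while RNase H2 is a complex of a catalytic A subunit with B and C subunits and also removes single ribonucleotides from DNA. Helicases unwind the hybrid, topoisomerases relieve the negative supercoiling that favours it, and XRN2 degrades the RNA that is left on RNA polymerase II after cleavage at the gene end.

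The targeted gene was checked first. SFPQ (ENSG00000116560) had 22381, 23139 and 21811 normalized counts in siControl replicates 1, 2 and 3, and 3238, 3780 and 3108 in siSFPQ. Normalized counts are counts scaled to library sizes by the trimmed mean of M values (TMM). SFPQ thus changed by -2.73 on the log2 scale (standard error, SE, 0.050). Library totals were 46142855 to 47119203 counts in siControl and 43469321 to 45543610 in siSFPQ. The floor used here, 3 counts, thus corresponds to 0.0637 to 0.069 CPM (counts divided by the library total and scaled). For all other CPM values the library total was first adjusted by TMM. The share of mitochondrial transcripts was 3.88% to 4.36% in siControl and 5.31% to 6.18% in siSFPQ, and its part in the results was not tested. Of 8 osteoblast lineage markers, RUNX2, COL1A1 and SPARC were well covered, while SP7, IBSP and BGLAP had at most 6 counts in any library. Of the 6 osteoblast markers tested, 1 was called higher (BGLAP) and 2 were called lower (COL1A1 and SPARC), with a median log2 fold change of -0.0098. Of 7 tested markers of other cell types, 4 were called higher and 1 lower, with a median of 0.53 and values from -1.61 to 1.59. Over all genes tested, 22.4% were called higher and 22.1% lower. The summed level of the 8 markers was 5041 to 5373 CPM in siControl and 4307 to 4339 CPM in siSFPQ, and that of 8 markers of other cell types was 11.5 to 14.4 and 14.4 to 16.8 CPM; the part of these markers in the results was not tested. Fewer cells of a type and less RNA per cell cannot be told apart in such bulk RNA.

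Differences were tested by edgeR's quasi-likelihood method, with Benjamini-Hochberg adjusted p-values over 29022 genes, and called where the adjusted p was below 0.05. Of the 9 enzyme genes, 3 were higher in siSFPQ, namely XRN2, DHX9 and TOP3B, and 3 were lower, namely RNASEH1, AQR and RNASEH2C. RNASEH2A, RNASEH2B and TOP1 did not pass the test. Over all genes tested, 22.4% were called higher and 22.1% lower, and among the 10218 genes with a mean of at least 10 CPM these shares were 31.4% and 38.8%. Of the 7 enzyme genes at or above that mean, which leaves out RNASEH2A and TOP3B, 2 were higher and 3 lower, near these shares. None of the 9 had a log2 fold change over 1.5 or under -1.5 in the edgeR fit or with DESeq2, past which 5.54% of all genes tested were called higher and 4.77% lower. In 3 genes all siSFPQ libraries were above and in 4 all were below the siControl libraries, which held for 26.9% and 25.4% of all genes tested. The median log2 fold change of the 9 was 0.073, beside 0.019 over all genes tested. Without RNASEH2A and TOP3B, which had few counts, the median of the other 7 was -0.090. Among all genes with a mean of at least 10 CPM it was -0.030. With library size alone in place of TMM, 4 of the 9 were called higher and 2 lower. Over all 29022 genes tested, library size alone gave 7622 higher and 5502 lower, against 6514 and 6421 with TMM.

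**Figure D1:**
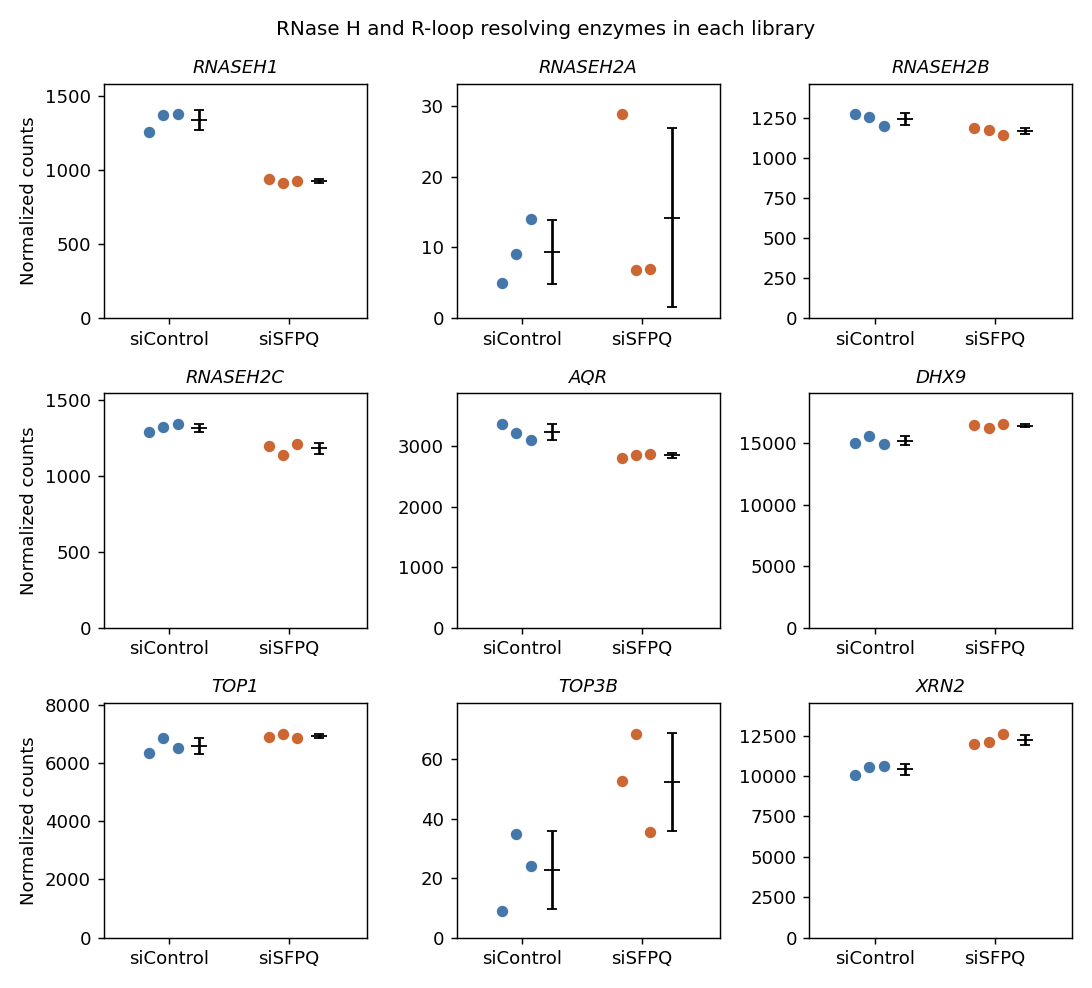
Normalized counts (vertical axes, each from 0) of the 9 enzyme genes in the 3 siControl (blue) and 3 siSFPQ (orange) libraries, each point being a library, with mean and SD beside the points. RNASEH1 lay between 911 and 936 in siSFPQ against 1258 to 1376 in siControl, whereas RNASEH2A and TOP3B had few counts and wide spreads.

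RNASEH1 showed the largest fall of the 9 and the largest change among those with a mean of at least 10 CPM. The gene (ENSG00000171865) lies on chromosome 2, from 3541430 to 3558333 on the minus strand of GRCh38, and its canonical transcript has 8 exons and 5289 bases. Its normalized counts were 1258, 1370 and 1376 in siControl replicates 1, 2 and 3 and 936, 911 and 925 in siSFPQ. All siSFPQ libraries were below all siControl libraries, and the siSFPQ libraries were the closer to each other. The means were 1335 ± 66.1 and 924 ± 12.8 (SD, n = 3 each), so the level fell by 30.8%. On the log2 scale the change was -0.53 (SE 0.060), with an adjusted p of 4.2e-09 by edgeR. The call held in all 13 alternatives of scaling, filter, tool and left-out library, with log2 fold changes from -0.57 to -0.47. Of its canonical exon bases, 19.2% are also exon bases of ENSG00000286905, a protein-coding gene on the same strand that had 0 to 6 counts per library.

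RNASEH1 and RNASEH1-DT are transcribed away from each other; RNASEH1-DT is a long non-coding RNA gene on the opposite strand whose annotated start lies 86 bases away. The promoter is shown because both transcripts begin in or beside it. It covers the 250 bases upstream of the RNASEH1 start in RefSeq's GRCh38.p14 annotation, chr2:3558334-3558583, read on the minus strand, with 4 matches to the SP1 motif GGGCGG in capitals, all as its reverse complement. The motif was searched on both strands and occurs in 42.6% of 35116 promoters of this length, so it does not single out RNASEH1.
RNASEH1 promoter: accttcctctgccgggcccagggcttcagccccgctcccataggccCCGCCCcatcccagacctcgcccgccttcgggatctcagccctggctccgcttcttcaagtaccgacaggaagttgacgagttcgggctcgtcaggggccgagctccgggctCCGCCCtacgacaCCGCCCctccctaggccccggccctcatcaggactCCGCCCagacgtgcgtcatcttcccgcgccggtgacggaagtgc

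RNASEH1-DT had 515, 440 and 455 normalized counts in siControl and 499, 554 and 577 in siSFPQ. The conditions overlapped, since siControl replicate 1 was above siSFPQ replicate 1. It changed by 0.21 on the log2 scale (SE 0.086, edgeR adjusted p = 0.0474, close to the threshold), with a sign opposite to that of RNASEH1. Within each library the ratio of RNASEH1 to RNASEH1-DT was 2.44, 3.11 and 3.02 in siControl and 1.88, 1.64 and 1.60 in siSFPQ. These ratios did not overlap between the conditions.

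RNASEH1 also has processed pseudogenes, whose counts could in part be reads of the parent gene. RNASEH1P1 on chromosome 17 (20901939 to 20902680) had 77, 112 and 89 counts in siControl and 27, 45 and 36 in siSFPQ, a log2 fold change of -1.37 (SE 0.227). All of its siSFPQ values were lower than all of its siControl values. Its sequence and the RNASEH1 mRNA share no run longer than 75 bases, and 0 of its 643 windows of 100 bases occur in the mRNA. RNASEH1P1 lies inside CCDC144NL-AS1, a long non-coding RNA gene on the other strand that was looked up after the values of the pseudogene were seen. CCDC144NL-AS1 had 2726, 2965 and 2727 normalized counts in siControl and 1194, 1270 and 1229 in siSFPQ, a log2 fold change of -1.19 (SE 0.051). Whether reads of that transcript entered the count of RNASEH1P1 was not tested. RNASEH1P2 had 4 to 12 counts per library, and 29 of its 691 windows occur in the mRNA.

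**Figure D2:**
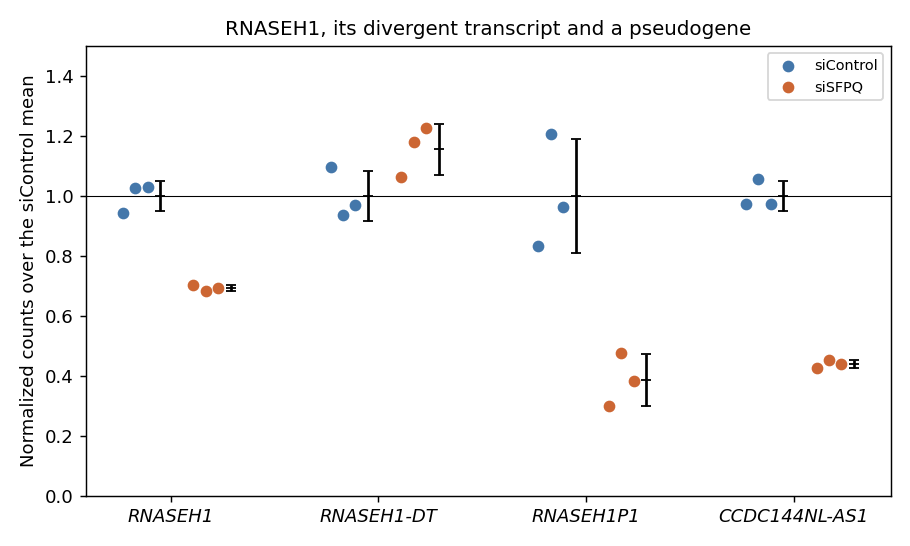
Normalized counts divided by the siControl mean of the same gene (vertical axis) for RNASEH1, RNASEH1-DT, the pseudogene RNASEH1P1 and CCDC144NL-AS1, with each library as a point and the mean and SD beside it. The siSFPQ points (orange) lie below all siControl points (blue) for RNASEH1, RNASEH1P1 and CCDC144NL-AS1, and overlap them for RNASEH1-DT.

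The RT-PCR primers that the study lists for RNASEH1 are given because they mark which part of the mRNA they would measure. The forward primer matches bases 986 to 1012 of the canonical transcript and the reverse primer, as its reverse complement, bases 1041 to 1060. Neither has an exact match in RNASEH1P1 or RNASEH1P2.
RNASEH1 forward primer: cctgtacttactggtgtggaaaatagc
RNASEH1 reverse primer: ccgtgtgaaagacgcatctg

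The genes nearest to RNASEH1 in profile were MIS18A, AGO3 and WWOX. Likeness was the root mean square distance between log2 CPM profiles over the 6 libraries, each centred on its mean, among 12958 protein-coding genes with a mean of at least 1 CPM. The distances were 0.0167, 0.0189 and 0.0191, and the log2 fold changes of these genes were -0.53, -0.53 and -0.52. As the genes were picked by that distance, fold changes like that of RNASEH1 follow from the choice. These profiles cover only 6 libraries in 2 conditions.

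The 3 RNase H2 genes differed greatly in how well they were counted. RNASEH2B (ENSG00000136104, chromosome 13, 50909747 to 51024120, plus strand) had 1275, 1258 and 1202 normalized counts in siControl and 1188, 1174 and 1147 in siSFPQ. All siSFPQ libraries lay below all siControl libraries, but the gap between the nearest libraries was small beside the spread of each condition. The means were 1245 ± 38.2 and 1170 ± 20.9 (SD, n = 3 each). The log2 fold change of -0.090 (SE 0.057, 95% interval -0.21 to 0.026) did not pass the test, with an adjusted p of 0.212 by edgeR.

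RNASEH2C (ENSG00000172922, chromosome 11, 65714005 to 65720818, minus strand), which encodes the other accessory subunit, had 1291, 1326 and 1345 normalized counts in siControl and 1202, 1141 and 1211 in siSFPQ. The conditions did not overlap, and the siSFPQ mean of 1185 ± 38.1 was below the siControl mean of 1321 ± 27.0 (SD, n = 3 each). On the log2 scale it changed by -0.16 (SE 0.056, edgeR adjusted p = 0.0224). Of the exon bases of its canonical transcript, 40.5% are also exon bases of KAT5, a histone acetyltransferase gene on the other strand. KAT5 itself had 606 ± 46.8 and 600 ± 19.7 normalized counts (SD, n = 3 each), with an adjusted p of 0.902 by edgeR. The call of RNASEH2C was lost with library size alone (log2 fold change -0.094, adjusted p = 0.174 by edgeR). It was also lost without siControl replicate 3, siSFPQ replicate 1 or siSFPQ replicate 2, with adjusted p-values of 0.0619, 0.0643 and 0.0611 by edgeR.

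RNASEH2A (ENSG00000104889, chromosome 19, 12806584 to 12813640, plus strand), the gene of the catalytic subunit, was almost uncounted. It had 5, 9 and 14 counts in siControl and 28, 7 and 7 in siSFPQ, and the conditions overlapped, with siSFPQ replicate 1 above and siControl replicate 1 below all other libraries. The log2 fold change of 0.59 had an SE of 0.579 (adjusted p = 0.45 by edgeR), and it became -0.42 without siSFPQ replicate 1. Of the exon bases of its canonical transcript, 94.1% are also exon bases of THSD8, a protein-coding gene on the same strand that had 0 to 2 counts per library. HOOK2, on the opposite strand, spans the locus but shares 0 exon bases with RNASEH2A. HOOK2 had 780 ± 35.6 and 1017 ± 40.4 normalized counts (SD, n = 3 each; log2 fold change 0.38).

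The few counts of RNASEH2A cannot be read as the level of its transcript, because how the counting treated a read that falls on exons of several genes is not given in the sources used here. Of 14667 protein-coding genes with under 5% of their canonical exon bases shared with another gene, 33.8% had a mean under 1 CPM and the median was 11.6 CPM. Of 738 genes with at least 80% shared on the same strand, 87.5% had a mean under 1 CPM, with a median of 0. For 62 genes with at least 80% shared on the opposite strand, the share was 74.2% and the median 0.0671 CPM.

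TOP3B likewise had few counts and nearly all of its canonical exon bases shared, but with a gene on the opposite strand. This gene (ENSG00000100038, chromosome 22, 21957025 to 21982813, minus strand) encodes a topoisomerase that acts on both DNA and RNA. It had 9, 35 and 24 counts in siControl and 51, 70 and 36 in siSFPQ. The highest siControl library and the lowest siSFPQ library differed by 1 count. The normalized counts were 22.7 ± 13.0 and 52.2 ± 16.5 (SD, n = 3 each), which is 1.20 on the log2 scale, with an SE of 0.337 and an adjusted p of 0.00386 by edgeR. The value depended on single libraries, at 0.94 (adjusted p = 0.0689 by edgeR) without siSFPQ replicate 2 and 1.65 without siControl replicate 2. Of its canonical exon bases, 98.0% are also exon bases of PPM1F-AS1, a long non-coding RNA gene on the other strand. PPM1F-AS1 had 484, 458 and 511 normalized counts in siControl and 623, 672 and 687 in siSFPQ, or 0.45 on the log2 scale (SE 0.079, edgeR adjusted p = 1.7e-05). The part of shared reads in the difference of TOP3B was not tested.

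Without genes with at least 80% of their exon bases shared, 7 enzyme genes remained, of which 2 were higher (XRN2 and DHX9), 3 were lower (RNASEH1, AQR and RNASEH2C) and 2 did not pass the test. This count was added after the data were seen. Among the 102 other genes of R-loop biology listed, 7 were shared to that degree: RTEL1, DDX39B, DDX47, SARNP, ZC3H11A, ERCC5 and TREX1. The other 95 had means from 7.92 to 1056 CPM.

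Of the helicases, AQR fell and DHX9 rose, each by a small amount. AQR (ENSG00000021776, chromosome 15, 34851782 to 34969742, minus strand) encodes Aquarius, a helicase that joins the spliceosome with the intron-binding complex. It had 3366, 3215 and 3104 normalized counts in siControl and 2810, 2854 and 2876 in siSFPQ, with no overlap. The means were 3229 ± 132 and 2847 ± 33.5 (SD, n = 3 each). This is -0.18 on the log2 scale (SE 0.043, edgeR adjusted p = 7.1e-04), and the call held in all 13 alternatives, at -0.21 to -0.12.

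AQR and RNASEH2B are the 2 enzyme genes whose genomic span exceeds 100 kb. Of 3424 protein-coding genes with such a span, 56.5% were called lower and 14.6% higher, with a median log2 fold change of -0.35. For spans of 10 to 50 kb, the class of RNASEH1, DHX9 and TOP3B, 23.4% were lower and 33.7% higher, with a median of 0.069. For spans under 10 kb, the class of RNASEH2A and RNASEH2C, 17.9% were lower and 29.7% higher, with a median of 0.080. For spans of 50 to 100 kb, the class of TOP1 and XRN2, 33.9% were lower and 28.6% higher, with a median of -0.021. AQR and RNASEH2B were thus nearer to 0 than the median gene of their class. RNASEH1, RNASEH2C, XRN2 and TOP1, the last not called, had signs opposite to the medians of their classes. Those medians, from -0.021 to 0.080, were near 0, so such a sign does not set a gene apart from its class.

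DHX9 (ENSG00000135829, chromosome 1, 182839347 to 182887982, plus strand), a helicase that unwinds RNA-containing duplexes, had 15011, 15639 and 14982 normalized counts in siControl. In siSFPQ it had 16465, 16299 and 16582, all above the siControl libraries. The means were 15211 ± 371 and 16449 ± 142 (SD, n = 3 each), a rise of 8.14% in the ratio of means. On the log2 scale this is 0.11 (SE 0.035, edgeR adjusted p = 0.0091), with 0.10 to 0.18 over the 13 alternatives.

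TOP1 (ENSG00000198900, chromosome 20, 41028822 to 41124487, plus strand), the main topoisomerase that relaxes supercoils behind RNA polymerase, had 6339, 6872 and 6533 normalized counts in siControl and 6901, 7006 and 6865 in siSFPQ. The conditions overlapped at siControl replicate 2. The means were 6581 ± 270 and 6924 ± 73.5 (SD, n = 3 each), and the log2 fold change of 0.073 (SE 0.039) had an adjusted p of 0.128 by edgeR. It passed the test with library size alone (0.14, adjusted p = 0.00246), with protein-coding genes only (0.084, adjusted p = 0.0441) and without siControl replicate 2 (0.11, adjusted p = 0.0394, all by edgeR).

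XRN2 showed the largest rise among the enzyme genes with a mean of at least 10 CPM. This gene (ENSG00000088930, chromosome 20, 21303331 to 21389825, plus strand) had 10039, 10567 and 10628 normalized counts in siControl and 12004, 12094 and 12601 in siSFPQ. No siSFPQ library overlapped siControl. The means were 10411 ± 324 and 12233 ± 322 (SD, n = 3 each), a rise of 17.5% in the ratio of means. On the log2 scale this is 0.23 (SE 0.037, edgeR adjusted p = 3.2e-06), and the call held in all 13 alternatives, at 0.21 to 0.30.

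**Figure D3:**
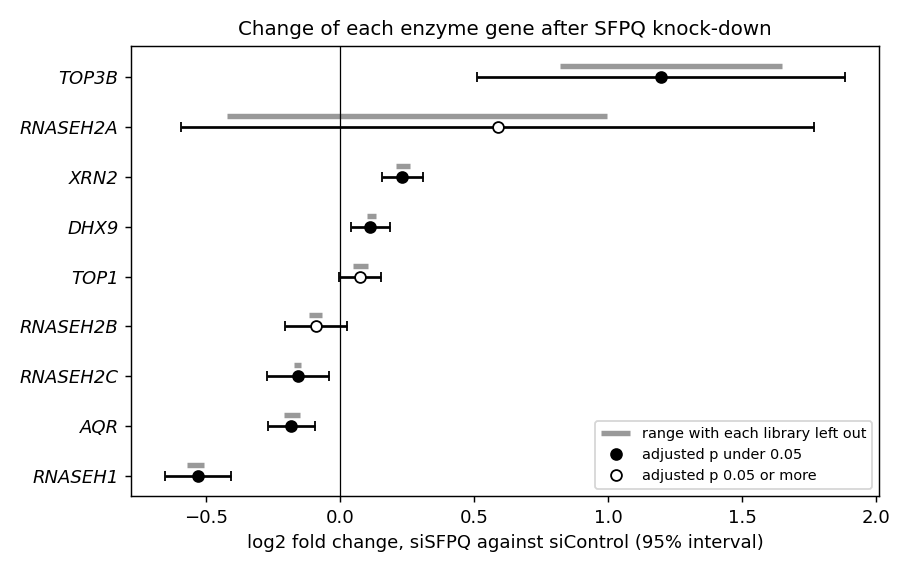
The log2 fold change of each enzyme gene in siSFPQ against siControl (horizontal axis) with its 95% interval; filled points have an adjusted p under 0.05, and grey bars give the range with each library left out in turn. TOP3B (1.20) and RNASEH2A (0.59) have the widest intervals, and the bar of RNASEH2A crosses 0.

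Per length, as CPM per kilobase of canonical transcript, DHX9 was the most abundant of the 9, at 74.0 ± 1.81 in siControl (SD, n = 3) and 79.3 to 80.7 in the siSFPQ libraries. It was followed by XRN2 (66.8 and 78.5), TOP1 (38.5 and 40.5), RNASEH2B (18.0 and 16.9), RNASEH2C (10.9 and 9.79), AQR (7.35 and 6.48) and RNASEH1 (5.52 and 3.82), with the siControl mean first. In siSFPQ the ranges of DHX9 and XRN2 overlapped, so those neighbours did not differ beyond their spread there. The order of all others down to RNASEH1 was the same in both conditions. RNASEH2A (0.176 and 0.267) and TOP3B (0.175 and 0.403) came last and overlapped each other in siControl and in siSFPQ. The limit on shared exons given above applies to them. It also touches RNASEH2C and RNASEH1, with 40.5% and 19.2% of canonical exon bases shared.

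Ratios within a library compare subunits and partners free of library size, and 6 were tested with a two-sided exact permutation test, for which 3 against 3 libraries allow no p below 0.1. The ratio of RNASEH2B to RNASEH2C was 0.988, 0.949 and 0.894 in siControl and 0.989, 1.03 and 0.947 in siSFPQ (exact p = 0.4, adjusted p = 0.6 over the 6 ratios). The ratio of AQR to XAB2, its partner in the intron-binding complex, was 1.22, 1.21 and 1.09 in siControl and 1.01, 1.11 and 0.974 in siSFPQ (exact p = 0.2). TOP3B to TDRD3, the scaffold protein of TOP3B, was 0.0142, 0.0641 and 0.0407 against 0.125, 0.161 and 0.0861 (exact p = 0.1, the smallest possible, adjusted p = 0.6). That ratio rests on the uncertain counts of TOP3B. The log2 differences of RNASEH2A to RNASEH2B, RNASEH2A to RNASEH2C and RNASEH1 to RNASEH2A were 0.46, 0.53 and -0.90, with exact p-values of 0.7, 0.7 and 0.4. No ratio passed the exact test, which at this size could not reach p under 0.05.

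The other genes of R-loop biology were grouped by role in 10 lists. Of 101 genes tested of 102 listed, 23 were higher, 40 were lower and 38 did not pass the test, with a median log2 fold change of -0.048. These values stand beside 31.4% higher, 38.8% lower and a median of -0.030 among all genes with a mean of at least 10 CPM. With library size alone the same lists gave 32 higher and 31 lower, so the balance of directions depends on the scaling. That scaling also gave 7622 higher and 5502 lower over all genes tested.

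The partners that work with RNase H2 in ribonucleotide excision repair were mostly lower: 6 of 7 were lower and 1 higher, with a median log2 fold change of -0.20. The falls were largest for DNA2, a nuclease and helicase that trims flaps (-0.46), RFC1, the large subunit of the clamp loader (-0.38), and POLD1, the catalytic subunit of DNA polymerase delta (-0.30). LIG1, a DNA ligase, was higher (0.11), a call that was lost without siControl replicate 1 or siSFPQ replicate 2. These genes also serve DNA replication, and in a list of 12 proliferation genes 9 were lower, with a median of -0.34. MCM3, a subunit of the replicative helicase, was the lowest of them, at -0.45. The part of proliferation in the changes of the repair genes was not tested.

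Among 22 other RNA:DNA helicases, 3 were higher, 9 were lower and 10 did not pass the test, with a median of -0.047. DDX1, an RNA helicase of RNA processing, rose by 0.45 on the log2 scale, with 10328 ± 360 normalized counts in siControl and 14136 ± 179 in siSFPQ (SD, n = 3 each). DDX21, a nucleolar RNA helicase, also rose (0.35), and PIF1, a DNA helicase that unwinds quadruplexes, fell (-0.36).

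In the list of termination and exosome partners of XRN2, 4 of 11 were higher and 4 were lower, with a median of 0.066. CSTF2, of the cleavage stimulation factor, and EXOSC10, of the nuclear exosome, were higher (0.28 and 0.26). RPRD1B, which binds the tail of RNA polymerase II, was lower, at 3014 ± 11.9 against 2224 ± 53.5 normalized counts (SD, n = 3 each; -0.44), and so was TTF2, a termination factor (-0.21). CDKN2AIP, which binds XRN2, was higher (0.23), and NKRF, another XRN2 partner, did not pass the test (0.066, adjusted p = 0.511 by edgeR).

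Of 8 other topoisomerases and partners, 5 were lower and 1 was higher, with a median of -0.14. TDRD3 had 633, 546 and 592 normalized counts in siControl and 420, 425 and 412 in siSFPQ, with no overlap and a log2 fold change of -0.49 (SE 0.083). TOP2B (-0.27), the mitochondrial TOP1MT (-0.23) and TOP2A (-0.16) were also lower, and FMR1, whose protein binds the TDRD3 complex, was higher (0.19). The 4 partner genes of the AQR complex had log2 fold changes from -0.050 to 0.011, and the lowest adjusted p among them was 0.42 (PPIE, edgeR). XAB2 stood at 2752 ± 89.4 and 2773 ± 187 normalized counts (SD, n = 3 each).

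The factors that package and export mRNA, the THO/TREX list, included 3 higher, 6 lower and 6 not called of 15, with a median of -0.035. SRSF1, a splicing factor (-0.26), and THOC6, a THO subunit (-0.26), were lower, and NXF1, the main mRNA export receptor, was higher (0.22). Of 9 genes listed as structure-specific nucleases or related repair factors, 3 were higher and 5 lower, with a median of -0.19. RBBP8, which starts the resection of DNA ends (-0.38), and EME1, the partner of MUS81 (-0.34), were lower, while the call of ERCC5 (0.52) rests on 58 to 105 counts per library of a gene with 91.7% of its exon bases shared.

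Of 12 repair and checkpoint genes, 3 were higher and 4 lower, with a median of -0.067. ATR, the kinase of the replication stress response, had 1710, 1881 and 1776 normalized counts in siControl and 3069, 2973 and 2958 in siSFPQ, with a log2 fold change of 0.75 (SE 0.047). RAD52, of single-strand annealing, was also higher (0.29). Of 9 chromatin factors, 3 were higher and 1 lower, with 3 lower without siControl replicate 3 and 2 without siSFPQ replicate 2. The lower gene was ATRX, a chromatin remodeller, which had 15073 ± 440 normalized counts in siControl and 10300 ± 393 in siSFPQ (SD, n = 3 each, log2 fold change -0.55). The study describes ATRX as silenced in this line, and these RNA counts do not give its protein level. The gene of its partner DAXX (0.24) and SUPT16H, of the FACT histone chaperone (0.17), were higher.

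RNase H2 mutations cause Aicardi-Goutieres syndrome, an inherited interferon disorder, and 5 other genes of that syndrome were listed. Of these, 4 were tested and 2 were higher. The number higher was 1 without siControl replicate 3. It was 3 with each other scaling, filterByExpr, the replicate block, protein-coding genes only, or without siControl replicate 2. IFIH1, a sensor of double-stranded RNA, rose by 0.81 on the log2 scale, from a siControl level of 263 ± 28.2 to 462 ± 23.0 normalized counts (SD, n = 3 each), and ADAR, an RNA-editing enzyme, rose by 0.11. SAMHD1, a nuclease of deoxynucleotides, did not pass the test (0.13, adjusted p = 0.0523 by edgeR), and neither did LSM11 (-0.025). TREX1, a DNA exonuclease, had 0 counts in every library, and all of its canonical exon bases are shared with another gene, so its level could not be read.

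**Figure D4:**
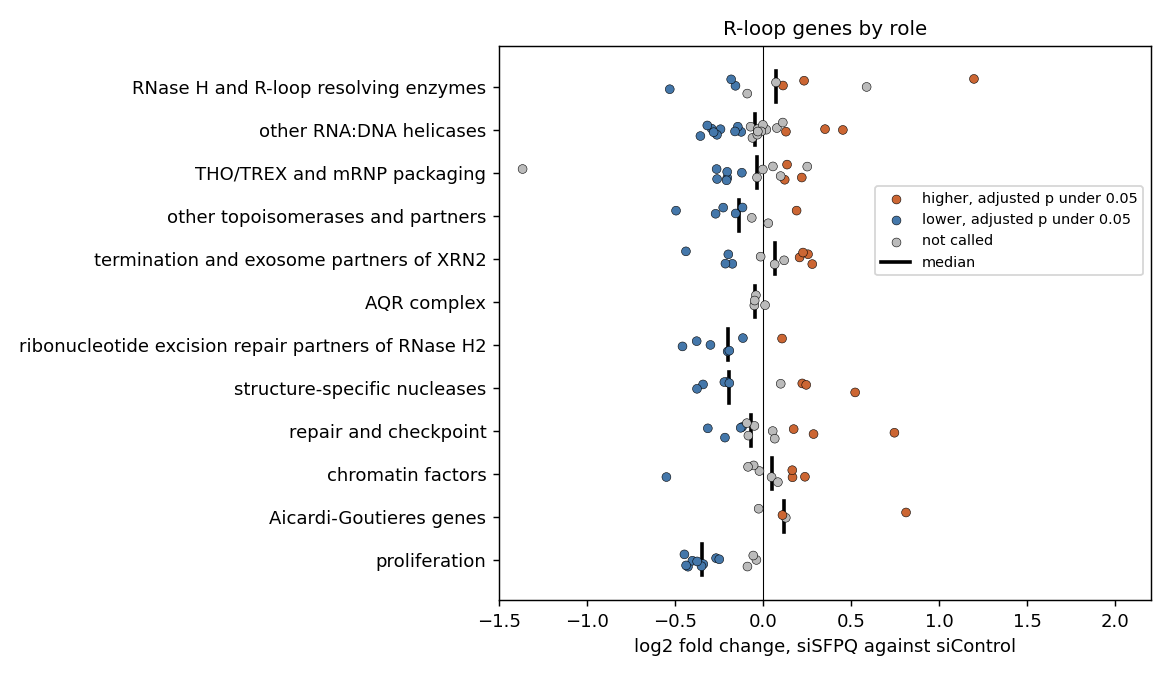
The log2 fold change in siSFPQ against siControl (horizontal axis) of each tested gene, in rows by role, with genes called higher in orange, called lower in blue and not called in grey, and the median of each row as a bar. The proliferation list (median -0.34) and the ribonucleotide excision repair partners (-0.20) lie mostly to the left of 0.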

How the data were processed

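The authors prepared stranded poly(A) mRNA libraries that were sequenced from both ends. Per the labels and methods, reads were checked with FastQC and counted per gene with STAR 2.7.9a on Ensembl's GRCh38. What the authors deposited are raw read counts, without normalization. The strand setting and the treatment of reads shared by genes are not given in the sources used here. Conditions were taken from the sample labels, which do not say whether replicates were separate cultures; the study calls them biological replicates, and p-values measure only the spread between these libraries.

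The 29022 genes that reached 10 counts over the 6 libraries entered the quasi-likelihood test of edgeR 4.0.16 (R 4.3.3) with TMM scaling and the condition alone in the model, and p-values were adjusted by Benjamini-Hochberg. The SE of a log2 fold change was its absolute value divided by the square root of the F statistic of this test. The 95% intervals were built from that SE. DESeq2 1.42.0 was an alternative. GENCODE release 44 gave names, positions and exons for 60463 of the 60664 identifiers, and canonical transcripts gave lengths and shared exon bases. Normalized counts were scaled to the geometric mean of the effective library sizes. Floors cover counting error only. Alternatives were other scalings, filters and fold thresholds, DESeq2, the replicate block, protein-coding genes only, each library left out, a pseudocount of 0.5 for the ratios, and, added later, leaving out genes with shared exons.

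The members and lists were chosen with earlier results of these data known. Genes named are the 9 enzymes, SFPQ, fixed partners, overlapping or like-named genes with at least 10 counts, and per list up to 3 genes with the largest changes among those called, without overlap and with a mean of at least 1 CPM; genes outside the rule are LIG1, FMR1, LSM11, PPIE, MCM3, THSD8 and CCDC144NL-AS1, and the genes given for shared exons, named after their values were seen. Among the genes that the rule gives, 2 are not reported here.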

Additional observations from a re-analysis of the deposited data

How the results depend on the processing

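RNASEH1, AQR, DHX9 and XRN2 kept direction and call in all 13 alternatives, and RNASEH2B stayed uncalled in all 13. With library size alone, RNASEH2C lost its call (log2 fold change -0.094) and TOP1 gained it (0.14); TOP1 was also called with protein-coding genes only (0.084). With each library left out, RNASEH2A ranged from -0.42 to 1.00, RNASEH2C from -0.17 to -0.14, TOP1 from 0.047 to 0.11 and TOP3B from 0.82 to 1.65; the number of enzyme genes past 1.5 ranged from 0 to 1 higher. With a fold threshold of 1 or 0.58 on the log2 scale, 1 enzyme gene (TOP3B) was called higher and 0 lower. Over the whole table, calls higher past 1.5 numbered 967 with filterByExpr and 581 with protein-coding genes only, and lower 830 with the latter, against 1609 and 1384; fewer genes were tested there. RNASEH2A was not tested with filterByExpr. Few counts limit RNASEH2A and TOP3B.

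Correlations of the deviations of same-numbered libraries were 0.0077, 0.0335 and 0.0340, all under the 0.1 taken as evidence of pairing, although each library correlated best with its own number; the libraries were treated as unpaired. With the replicate block, 3 enzyme genes were higher and 3 lower, as without it, and RNASEH1 stood at -0.53; among the other R-loop genes 26 were higher and 42 lower.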
